A study of Mus musculus with 2 samples.

Results

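The mouse mitochondrial genome carries 37 annotated genes: 2 ribosomal RNA (rRNA) genes, 13 messenger RNA (mRNA) genes and 22 transfer RNA (tRNA) genes. They were taken as every gene whose symbol begins with mt- and made up 37 of the 55357 genes in the count tables. The tables come from droplet single-cell RNA sequencing of dissociated mouse liver after carbon tetrachloride (CCl4), a hepatotoxin used to produce liver fibrosis. Each of the 2 groups was 1 library: CCl4, and CCl4+IPA, in which the mice also received indole propionic acid, a tryptophan metabolite made by gut bacteria. Both libraries carry the CCl4 injury, red cells were lysed and dead cells were removed in both, and neither an untreated liver nor the number of animals behind a library is described. The study's title names liver fibrosis and the macrophage as its subjects.

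Mitochondrial DNA is transcribed from both strands as long precursors that are cut at the tRNAs, so that neighbouring rRNAs and mRNAs are released from the same transcript. The mRNAs encode core subunits of the respiratory chain and of ATP synthase, the rRNAs form the mitochondrial ribosome that translates them, and all proteins needed to copy and express the genome come from the nucleus. In single-cell work the summed share of mitochondrial RNA is commonly read as a sign of damaged cells. Here every deposited barcode was kept whatever its mitochondrial share.

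The CCl4 library held 45009730 unique molecular identifiers (UMIs, counted molecules) in 10427 barcodes and the CCl4+IPA library (the IPA library; CCl4 alone stands for the other) 37983923 UMIs in 10471 barcodes, with medians of 3172 and 2771 UMIs per barcode. The libraries shared 23 barcode sequences. With 1 library per group there was no replicate error, so nothing was tested; the intervals given are exact 95% intervals that cover counting error only. Levels are UMIs per 1000000 UMIs of the library or gate (CPM) or percent of UMIs. The median log2 ratio of the IPA over the CCl4 library was 0.22, a ratio of 1.17. It was taken over the 18323 genes with at least 20 UMIs in both libraries together, each gene weighted alike. Each ratio below is to be read against it, but sets of genes differ. The median was -0.11 over 87 cytosolic ribosomal protein genes and 0.02 over 38 nuclear complex I genes, while other sets lay above 0.22. In all, 28.8% of the 18323 genes had a ratio under 1. Haemoglobin mRNAs, summed over all barcodes, were 2.35-fold lower and hepatocyte mRNAs 1.63-fold higher in the IPA library. Of the 6 hepatocyte mRNAs, 5 were higher and 1 lower. Their sum was 3.04-fold lower in barcodes of 4000 to under 8000 UMIs and higher in each other depth range. It was higher in 6 of the 6 cell type gates in which it was compared. The part of haemoglobin and hepatocyte mRNAs in the results was not tested.

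The 37 genes together took 3.39% of all UMIs in the CCl4 library (interval 3.38 to 3.39%) and 1.78% in the IPA library (1.78 to 1.79%), a 1.90-fold lower share. The difference lay in the 2 rRNA genes. The 12S rRNA mt-Rnr1 and the 16S rRNA mt-Rnr2 summed to 2.31% of UMIs in CCl4 and 0.603% in the IPA library, a 3.83-fold lower share (3.81 to 3.85). The 13 mRNAs summed to 1.08% and 1.18%, a ratio of 1.10 (log2 0.13, under the all-gene median). The rRNA genes thus made up 68.2% of mitochondrial UMIs in CCl4 and 33.8% in the IPA library, and there were 2.15 and 0.510 rRNA UMIs for each mRNA UMI.

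Both rRNAs differed by nearly the same ratio. mt-Rnr1 was at 7093 CPM in CCl4 and 1799 CPM with IPA, for a ratio of 0.254 (0.252 to 0.256). mt-Rnr2 was at 15993 and 4228 CPM, a ratio of 0.264 (0.263 to 0.266). Per kilobase of transcript, mt-Rnr2 stood above mt-Rnr1 in both libraries, at 10110 against 7427 CPM per kb in CCl4 and 2672 against 1884 CPM per kb in the IPA library. The library chemistry primes on stretches of A, which can be a tail at the end of an RNA or a run inside it. The surroundings of the first of the longest internal A runs are shown, with the run in capitals. They are from the GENCODE release M21 transcripts (GRCm38).
mt-Rnr1: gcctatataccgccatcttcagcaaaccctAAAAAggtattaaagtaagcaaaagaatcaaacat
mt-Rnr2: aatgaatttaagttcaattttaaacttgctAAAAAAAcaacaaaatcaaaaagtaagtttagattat
The runs of 5 and 7 bases lie within the range of the 13 mRNAs, whose longest A runs have 3 to 8 bases. Tails of A added after transcription are not part of these sequences and were not compared. Where the counted reads were primed was not tested.

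A second group of rRNA-related features differed in the same direction. Rn18s-rs5, named for its relation to the cytosolic 18S rRNA, was at 71169 CPM in CCl4 and 11764 CPM in the IPA library. Lars2, which encodes the mitochondrial leucyl-tRNA synthetase but is known in mouse libraries for collecting rRNA-like reads, was at 1380 and 311 CPM, and Mir6236, another such feature, at 906 and 333 CPM. Together these 3 took 7.35% and 1.24% of UMIs, a 5.92-fold lower share in the IPA library. Their part in the mitochondrial rRNA difference was not tested.

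The rRNA difference was present in every cell type that could be compared. Barcodes were gated by 15 lists of 8 marker genes each, and 10 gates held at least 20 barcodes in each library. The B cell gate was the largest, with 3834 and 3296 barcodes, and was highest in mitochondrial RNA: 4.42% of its UMIs in CCl4 and 2.21% in the IPA library. Mitochondrial rRNA was 3.05% and 0.690% in B cells, 2.69% and 0.671% in T cells, and 2.12% and 0.504% in NK cells or ILC1. It was 1.82% and 0.473% in plasmacytoid dendritic cells, 2.04% and 0.508% in monocytes, and 1.41% and 0.346% in conventional dendritic cells. Over the 10 gates it was lower in the IPA library in 10, from 2.54-fold in mesothelial cells (1.39% and 0.546%) to 5.89-fold in basophils or mast cells (2.31% and 0.393%). The rRNA-like features were also lower in 10 of 10 gates, from 3.98-fold to 10.5-fold, and the mesothelial and basophil or mast cell gates were again the ends of that range.

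**Figure D1:**
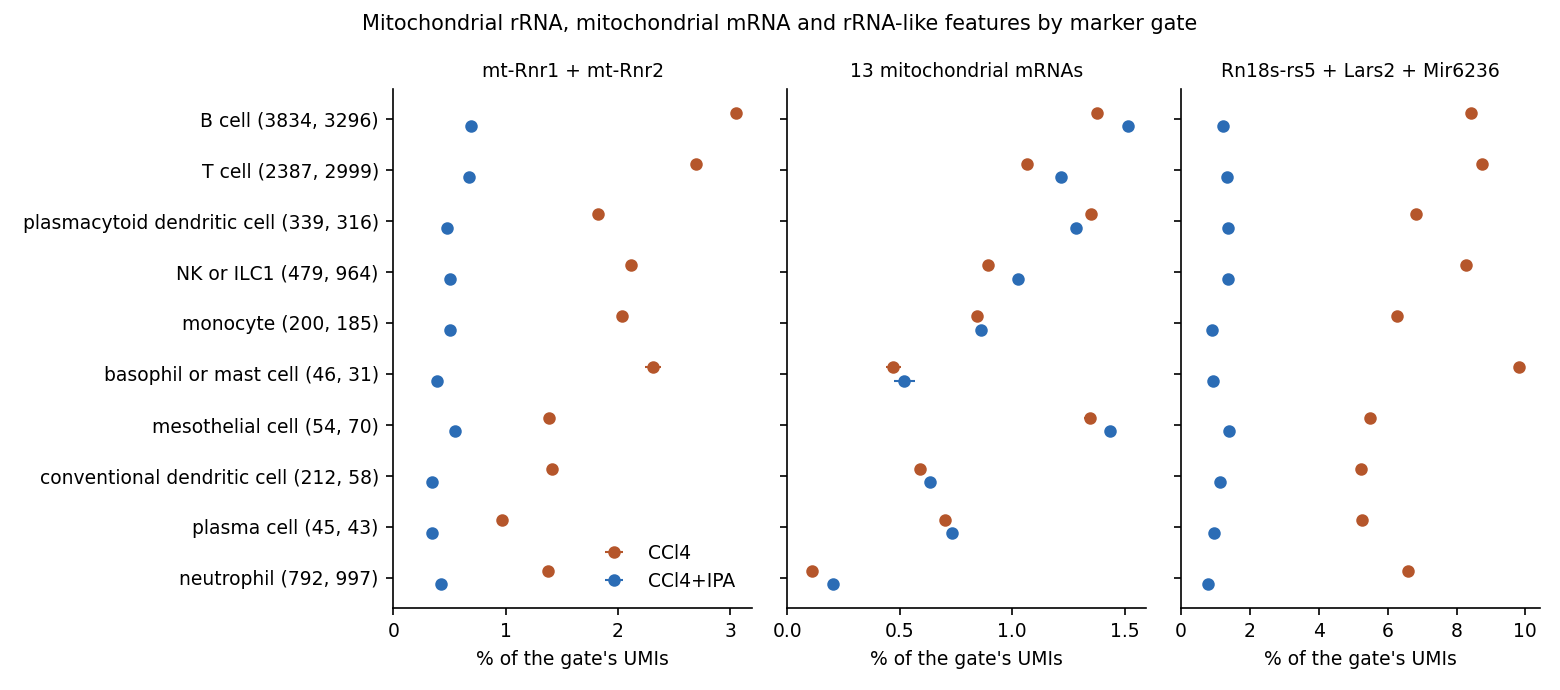
Share of UMIs taken by the 2 mitochondrial rRNAs, the 13 mitochondrial mRNAs and the 3 rRNA-like features in each marker gate (barcodes in the CCl4 and CCl4+IPA library in brackets). Points are summed shares with exact 95% counting intervals, mostly smaller than the point. In the first and last panels all 10 gates are lower in CCl4+IPA, while in the middle panel 9 are higher, with ratios from 1.03 in monocytes to 1.84 in neutrophils.

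The mRNA sum did not follow the rRNAs. It was higher in the IPA library in 9 of 10 gates and lower in the plasmacytoid dendritic cells alone, at 1.35% and 1.29%. B cells had 1.38% and 1.52%, T cells 1.07% and 1.22%, and NK cells or ILC1 0.891% and 1.03%. Set against the median ratio of all genes in the same gate, the mRNA sum was below that median in 7 of 10 gates and above it in 3. Leaving the 3 rRNA-like features out of the denominator turned the monocyte gate, from a log2 ratio of 0.037 to -0.043.

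The order of the gates by mRNA level was nearly the same in both libraries. B cells were first and neutrophils last, and the only exchange was between plasmacytoid dendritic cells and mesothelial cells next after B cells (1.35% against 1.34% in the CCl4 library, 1.29% against 1.43% in the IPA library). T cells followed, then NK cells or ILC1 and monocytes, then plasma cells (0.700% and 0.733%), conventional dendritic cells (0.589% and 0.633%) and basophils or mast cells (0.472% and 0.521%). Counting intervals of neighbours in this order overlapped only for plasmacytoid dendritic cells (1.34 to 1.37%) and mesothelial cells (1.32 to 1.37%) in the CCl4 library; the spread between animals is not measured.

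Among the 13 mRNAs, 3 were over 1.5-fold lower in the IPA library and 1 was over 1.5-fold higher, beside 8.17% and 16.9% of all genes measured. By direction alone, 6 were lower and 7 higher, and all 13 differed from a ratio of 1 by more than counting error.

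Complex I, the NADH dehydrogenase at the entry of the chain, has 7 subunits encoded here. Their summed share was 0.608% of UMIs in CCl4 and 0.676% in the IPA library, but the members differed. mt-Nd1 was at 1552 and 1976 CPM (ratio 1.27), mt-Nd4 at 1945 and 2418 CPM (1.24), and mt-Nd2 at 1641 and 1671 CPM (1.02). mt-Nd5 was at 821 and 649 CPM, a ratio of 0.791 (0.778 to 0.804), and was lower in 9 of 10 gates. mt-Nd6, the one mRNA on the opposite strand, was at 48.3 and 31.8 CPM, a ratio of 0.659 (0.614 to 0.707), and was lower in 8 of the 9 gates in which it was measured. Without the barcodes over 20% mitochondrial its log2 ratio went from -0.60 to -0.57, inside the 1.5-fold limit. The last 14 bases of mt-Nd5 lie antisense to the end of mt-Nd6, and whether the counting used strand is not given. mt-Nd4l was at 13.2 and 8.98 CPM (ratio 0.678). It was lower in 6 of the 7 gates in which it was measured, in 2 of them by more than counting error. mt-Nd4, which is carried on the same mature transcript, was higher in 10 of 10 gates, in 8 by more than counting error. Nearly all of the mt-Nd4l sequence and part of the mt-Nd4 sequence are shared with annotated nuclear copies.

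Complex III has a single member, cytochrome b. mt-Cytb was the most abundant mRNA in both libraries at 2809 and 3408 CPM, a ratio of 1.21 (1.20 to 1.22), and made up 26.1% and 28.9% of mitochondrial mRNA UMIs. It was higher in 10 of 10 gates, for example at 3654 and 4521 CPM in B cells and 2751 and 3556 CPM in T cells. Of all genes measured in a gate, 80.5% were higher in B cells and 81.5% in T cells, and over the 10 gates this share ran from 43.4% in plasma cells to 81.5%, and a count of gates in the higher direction is to be read against these shares. The log2 ratio of mt-Cytb was 0.28 over all barcodes and 0.31 in B cells, against all-gene medians of 0.22 and 0.28, and it lay below the gate's median in plasmacytoid dendritic cells and in basophils or mast cells. Of complex IV, the cytochrome c oxidase that reduces oxygen, mt-Co1 was at 1330 and 1238 CPM (ratio 0.930), mt-Co2 at 18.2 and 25.5 CPM (1.40) and mt-Co3 at 46.0 and 71.4 CPM (1.55, interval 1.46 to 1.64). mt-Co3 was higher in 9 of the 9 gates in which it was measured and was the only mRNA over 1.5-fold higher. Nearly all of the sequence of mt-Co2 and of mt-Co3 is shared with annotated nuclear copies, as described below. Their counts depend on how shared reads were assigned, and the part of this in their ratios was not tested.

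**Figure D2:**
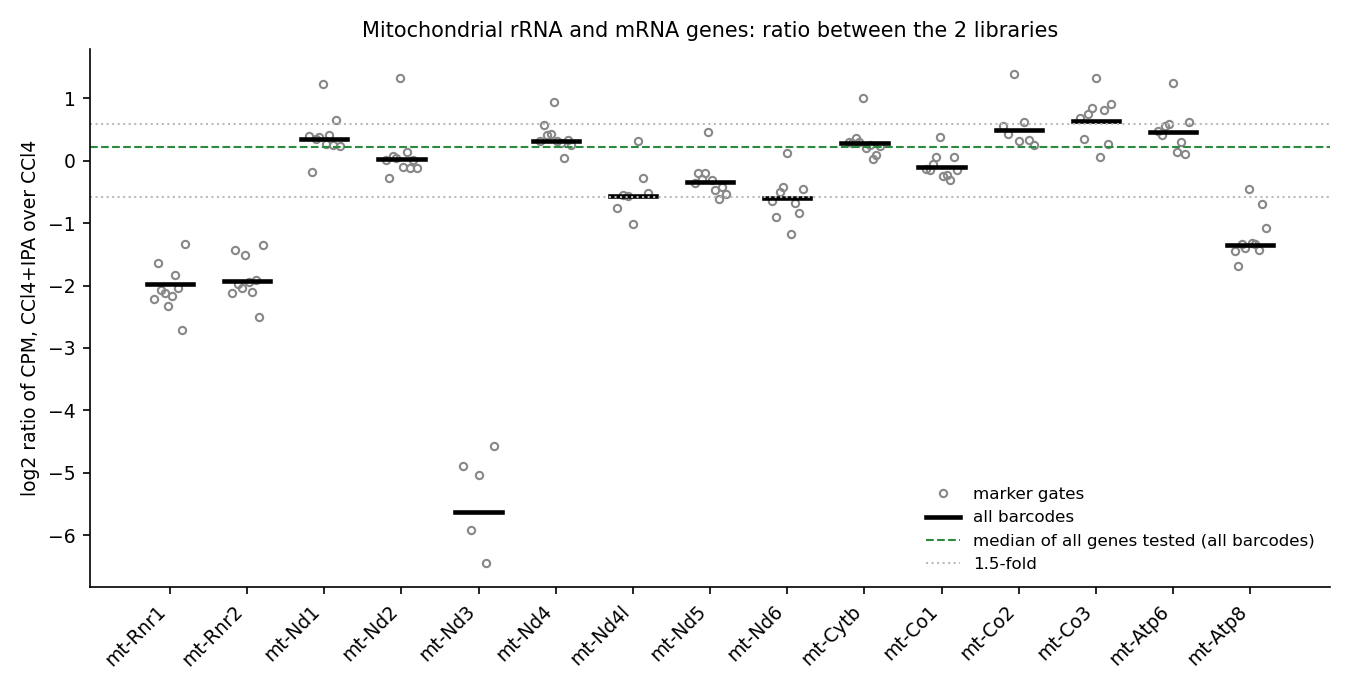
Log2 ratio of CPM (CCl4+IPA over CCl4) of the 2 rRNAs and 13 mRNAs: bars for all barcodes, open circles for each of the 10 marker gates with at least 20 UMIs of the gene and a UMI in both libraries. The dashed line is the median of all genes measured (0.22) and the dotted lines mark 1.5-fold; mt-Rnr1, mt-Rnr2, mt-Nd3, mt-Atp8 and mt-Nd6 lie below the lower one, at -1.98, -1.92, -5.64, -1.36 and -0.60 over all barcodes.

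The counts of the 2 ATP synthase subunits, which share a transcript, went opposite ways. mt-Atp8, a small membrane subunit, was at 352 CPM in CCl4 and 137 CPM with IPA, for a ratio of 0.390 (0.378 to 0.403). mt-Atp6, part of the proton channel, was at 126 and 173 CPM, a ratio of 1.37 (1.32 to 1.42). mt-Atp8 was lower in 10 of 10 gates, at 446 and 164 CPM in B cells, 374 and 149 CPM in T cells and 438 and 163 CPM in plasmacytoid dendritic cells. mt-Atp6 was higher in 9 of the 9 gates in which it was measured, but nearly all of its sequence is shared with an annotated nuclear copy. The mt-Atp8 difference passed 1.5-fold in 9 of 10 gates. The share of all genes that were over 1.5-fold lower was 3.51% in B cells, 3.47% in T cells, 2.73% in NK cells or ILC1, 4.02% in neutrophils, 6.19% in monocytes, 8.59% in conventional and 4.15% in plasmacytoid dendritic cells, 9.09% in mesothelial cells, 10.7% in basophils or mast cells and 24.5% in plasma cells. In the other direction these shares were 17.5%, 17.1%, 20.2%, 15.7%, 16.0%, 20.9%, 16.3%, 16.6%, 23.2% and 16.2% in the same order. The 2 reading frames overlap, and the whole of mt-Atp8 is shown with the 43 bases that also begin mt-Atp6 in capitals (GENCODE M21, GRCm38).
mt-Atp8: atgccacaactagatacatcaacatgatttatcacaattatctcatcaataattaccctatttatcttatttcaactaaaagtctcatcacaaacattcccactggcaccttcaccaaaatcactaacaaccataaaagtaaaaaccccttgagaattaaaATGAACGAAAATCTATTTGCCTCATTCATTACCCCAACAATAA
How the counting assigned reads that lie in the overlap is not given.

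The largest difference of any mRNA was in the counts of mt-Nd3, a complex I subunit. It had 2651 UMIs (58.9 CPM) in the CCl4 library and 45 UMIs (1.18 CPM) in the IPA library, a 49.7-fold lower level. No barcode of the IPA library held more than 1 UMI of it, against up to 9 in the CCl4 library. It was lower in 8 of the 8 gates in which it was measured. B cells had 812 and 20 UMIs (70.5 and 2.37 CPM), T cells 606 and 11 (58.2 and 0.963 CPM), plasmacytoid dendritic cells 215 and 2 (94.3 and 1.09 CPM), and NK cells or ILC1 72 and 4 (37.8 and 1.15 CPM). Monocytes had 70 UMIs, conventional dendritic cells 100 and plasma cells 53 in CCl4 and none in the IPA library, which with a floor of 3 UMIs makes the level at least 17.3-fold, 8.37-fold and 12.9-fold lower.

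mt-Nd3 has a near-identical copy in the nuclear genome, the annotated pseudogene Gm28438. Their first 60 bases are shown because the only difference over the 345 bases compared lies there: T3C, counted from 1 at the 5′ end of mt-Nd3 and in capitals (GENCODE M21, GRCm38).
mt-Nd3: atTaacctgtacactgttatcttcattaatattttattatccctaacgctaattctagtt
Gm28438: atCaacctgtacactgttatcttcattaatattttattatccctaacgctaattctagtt
Reads from the 2 can therefore be told apart only over that base or outside the shared stretch, and both values are uncertain. The strain of the mice is not given, and whether both libraries carry the same base there was not tested. Gm28438 went the other way, with 1846 UMIs (41.0 CPM) in the CCl4 library and 2647 UMIs (69.7 CPM) in the IPA library, 1.70-fold higher (1.60 to 1.80). Summed, the pair was at 99.9 and 70.9 CPM, a ratio of 0.709 (0.676 to 0.744) in place of the 0.0201 of mt-Nd3 alone. mt-Nd3 made up 58.9% of the pair's UMIs in the CCl4 library (57.5 to 60.4%) and 1.67% in the IPA library (1.22 to 2.23%).

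**Figure D3:**
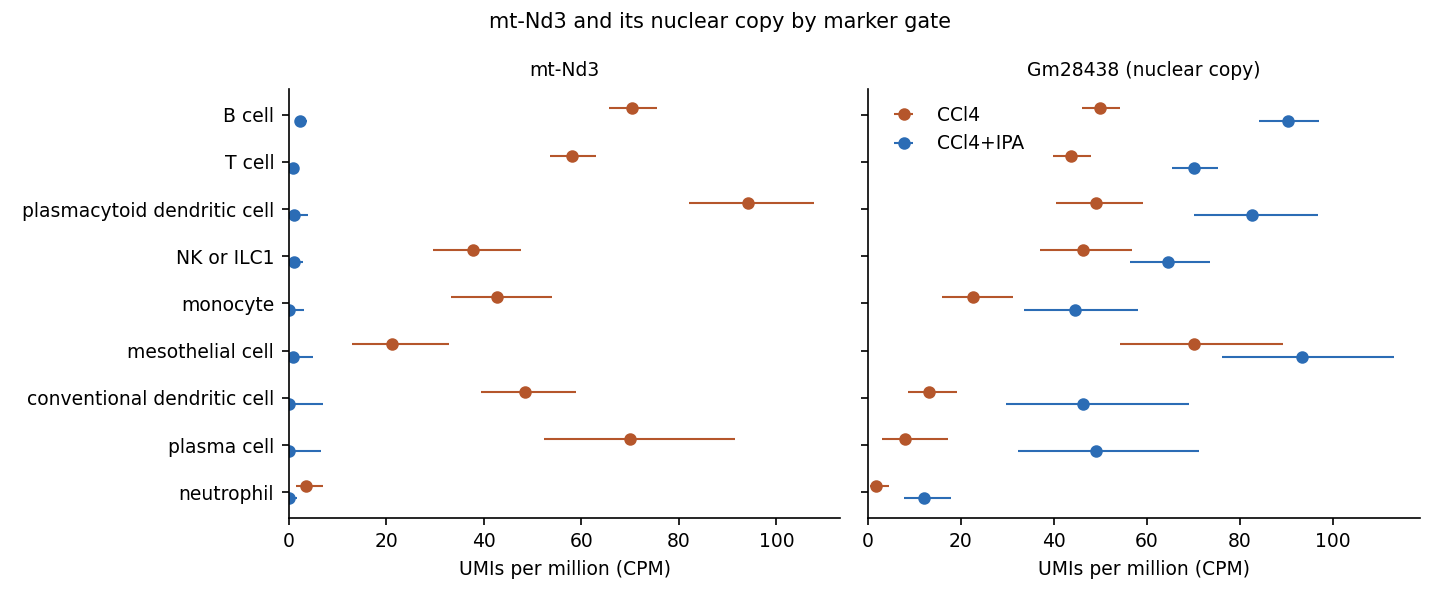
CPM of mt-Nd3 (left) and of its nuclear copy Gm28438 (right) in the marker gates with at least 20 UMIs of the pair, with exact 95% Poisson intervals. On the left all 9 gates are higher in CCl4, and on the right all 9 are higher in CCl4+IPA.

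By detection per barcode and in each large gate, mt-Nd3 was also lower and Gm28438 higher in the IPA library. The barcodes and gates are parts of the same 2 libraries and no replicates. Whether reads were assigned differently within the pair was not tested. An mt-Nd3 UMI was present in 18.1% of barcodes in CCl4 and 0.430% in the IPA library, and a Gm28438 UMI in 12.4% and 20.0%. With each barcode thinned to 1000 UMIs (695 and 625 shallower barcodes left out) the shares were 5.76% and 0.102% for mt-Nd3 and 4.25% and 6.79% for Gm28438. In B cells mt-Nd3 was 58.5% and 2.56% of the pair, in T cells 57.1% and 1.35%, and in plasmacytoid dendritic cells 65.7% and 1.30%. The tRNA gene directly before mt-Nd3, mt-Tg, had 65 and 7 UMIs, a 7.84-fold lower level. Of the 16 tRNAs measured, 7 including mt-Tg were over 1.5-fold lower. Whether the level of mt-Tg is linked to that of mt-Nd3 was not tested.

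Sequence sharing of this kind extends to other mRNAs. Each mitochondrial transcript was cut into all its 60-base windows, and a window counted as shared if it also occurred in another annotated transcript. More than 90% of windows were shared in 5 mRNAs: mt-Co2, mt-Atp6, mt-Co3, mt-Nd3 and mt-Nd4l. Their levels were 26.6 to 186 CPM per kb in the CCl4 library and 3.40 to 254 CPM per kb in the IPA library. The 4 mRNAs with part of their windows shared (mt-Nd2, mt-Co1, mt-Nd4 and mt-Nd5) stood at 450 to 1581 and 356 to 1755 CPM per kb. The 4 with no shared window (mt-Nd1, mt-Atp8, mt-Nd6 and mt-Cytb) stood at 93.1 to 2455 and 61.3 to 2979 CPM per kb, with mt-Nd6 the lowest. The part of read assignment in these levels, and in the ratios between the libraries, was not tested. Summed with its nuclear copies, mt-Nd4l kept 97.1% and 95.8% of the UMIs of the sum. These shares were 98.1% and 98.6% for mt-Atp6 and 85.0% and 87.6% for mt-Co2. A read counted for neither gene is missing from such a sum. These values therefore cannot show whether shared sequence lowered a level.

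**Figure D4:**
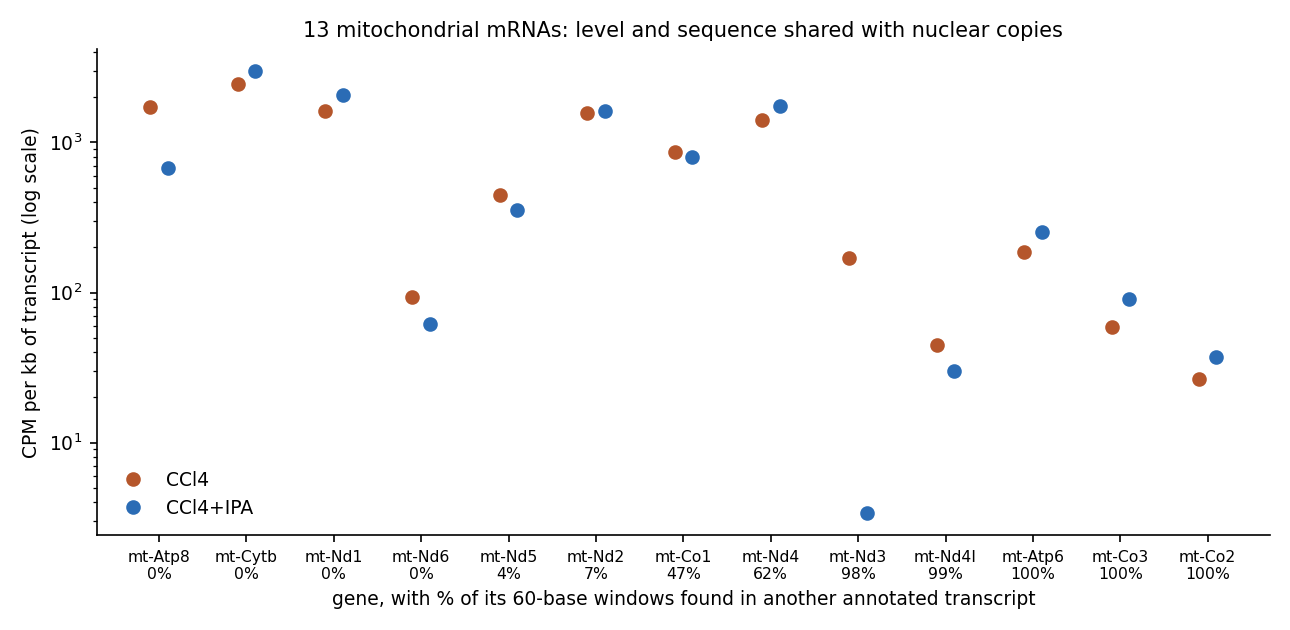
Level per kilobase (log scale) of the 13 mitochondrial mRNAs in each library, ordered by the share of their 60-base windows found in another annotated transcript. The 5 mRNAs at the right, with over 90% of windows shared, are all at 254 CPM per kb or less, as is mt-Nd6 at 93.1 and 61.3; every other mRNA is above.

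The tRNAs were close to absent, with 797 UMIs over 22 genes in CCl4 and 365 in the IPA library, a 1.84-fold lower level (1.63 to 2.09). Of the 16 with at least 20 UMIs, 14 were lower and 2 higher in the IPA library, and 7 were over 1.5-fold lower, beside 28.8% of all genes lower and 8.17% over 1.5-fold lower. These 7 were mt-Tg, mt-Tv (60 and 17 UMIs), mt-Tn (59 and 17), mt-Tq (30 and 9), mt-Tw (115 and 41), mt-Tm (73 and 35) and mt-Tc (85 and 41). The other 9 had intervals that include a ratio of 1: mt-Ta (85 and 51), mt-Td (32 and 19), mt-Ts2 (34 and 29), mt-Tf (19 and 15), mt-Tt (22 and 17), mt-Tp (22 and 16), mt-Tr (17 and 12), mt-Ti (14 and 12) and mt-Tl1 (13 and 9). In CPM, mt-Ti and mt-Ts2 were the 2 higher ones. The other 6, mt-Ty, mt-Ts1, mt-Tk, mt-Th, mt-Tl2 and mt-Te, had under 20 UMIs over both libraries.

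Neutrophils stood apart in both libraries. These short-lived cells are known for few mitochondria and a largely glycolytic metabolism. Their mitochondrial mRNA was 0.111% of UMIs in CCl4 and 0.204% in the IPA library, the lowest of the 10 gates, and its ratio of 1.84 was the highest. Haemoglobin mRNAs were higher in this gate too, at 78.3 and 492 CPM (6.28-fold), unlike over all barcodes, and hepatocyte mRNAs were 4.50-fold higher; their part in the mRNA difference was not tested. Their rRNA was 1.37% and 0.425%, so there were 12.4 and 2.08 rRNA UMIs per mRNA UMI, the highest of the 10 gates in both libraries. The mRNA UMIs sat in few barcodes: the 80 and 100 neutrophil barcodes with the most held 58.6% and 63.0% of them. No mitochondrial mRNA UMI was found in 261 of 792 neutrophil barcodes (33.0%) and 325 of 997 (32.6%), or, at 1000 UMIs each, in 411 of 741 (55.5%) and 444 of 910 (48.8%). Within the gate mt-Cytb was at 288 and 577 CPM, mt-Nd1 at 111 and 262 CPM and mt-Co1 at 247 and 320 CPM, and mt-Co1 took 22.3% and 15.7% of the mRNA UMIs.

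The macrophages named in the study's title could not be compared, nor could 4 other liver cell types, because the macrophage, stellate cell or fibroblast, endothelial, hepatocyte and cholangiocyte gates held under 20 barcodes in at least 1 library. The macrophage gate held 118 and 18 barcodes, of which 65 and 9 had no mitochondrial UMI at all. In the 65 barcodes of the CCl4 library the nuclear RNA Malat1 was also nearly missing, at 0.0453% of UMIs against 2.50% in the whole library, while cytosolic ribosomal protein mRNAs were present at 18.2%. At 1000 UMIs per barcode, 36 of 64 macrophage barcodes (56.3%) still lacked a mitochondrial UMI. The 8 and 15 barcodes of the hepatocyte gate held 20 mitochondrial UMIs of 31127 (0.0643%) and 50 of 160166 (0.0312%), although hepatocytes are known as cells rich in mitochondria. Over the whole library, 132 barcodes (1.27%) in the CCl4 and 35 (0.334%) with IPA lacked any mitochondrial UMI; Malat1 was 0.0621% and 0.997% of their UMIs.

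The opposite tail was larger in the CCl4 library. At least 20% of UMIs were mitochondrial in 106 of its barcodes (1.02%) and in 3 of the IPA library (0.0287%). The 106 had a median of 848.5 UMIs and 86 of them fell in no gate. Their median rRNA share was 18.1% and their median mRNA share 6.62%, their rRNA-like features were at a median of 3.96%, and ribosomal protein mRNAs made up 3.29% of their UMIs against 19.4% in the library.

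The direction of the median summed share depended on depth only among the shallowest barcodes. The median mitochondrial share was 3.98% and 1.85% in barcodes of 2000 to under 4000 UMIs, 3.37% and 1.66% at 4000 to under 8000, and 2.47% and 1.49% at 8000 or more. At 1000 to under 2000 UMIs the medians were 3.23% and 1.74%. Under 1000 UMIs they were 2.60% in 695 barcodes of the CCl4 library and 3.40% in 625 of the IPA library, the opposite direction, whereas the summed shares there were 6.74% and 4.38%. In the same bin Malat1 was 3.23% and 5.77% of UMIs and cytosolic ribosomal protein mRNAs were 14.4% and 4.89%; their part in the reversed median was not tested. The quartiles in that bin, 1.42% and 10.3% in the CCl4 library and 1.00% and 6.57% in the IPA library, were far apart. The mRNAs alone were lower with IPA in the bin of 1000 to under 2000 UMIs, at 1.42% and 1.30% of UMIs (ratio 0.916, 0.902 to 0.931) and medians of 1.27% and 1.14%, and higher in the other 4 bins. Under 1000 UMIs their medians were 1.75% and 2.17%. Within gates the shallow bin was not uniform either: B cells under 1000 UMIs had medians of 4.12% (67 barcodes) and 4.75% (103), and T cells 13.9% (27) and 4.71% (60). For B cells of 2000 to under 4000 UMIs the medians were 4.34% and 2.08%, with rRNA at 3.01% and 0.658% and mRNA at 1.31% and 1.43%.

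**Figure D5:**
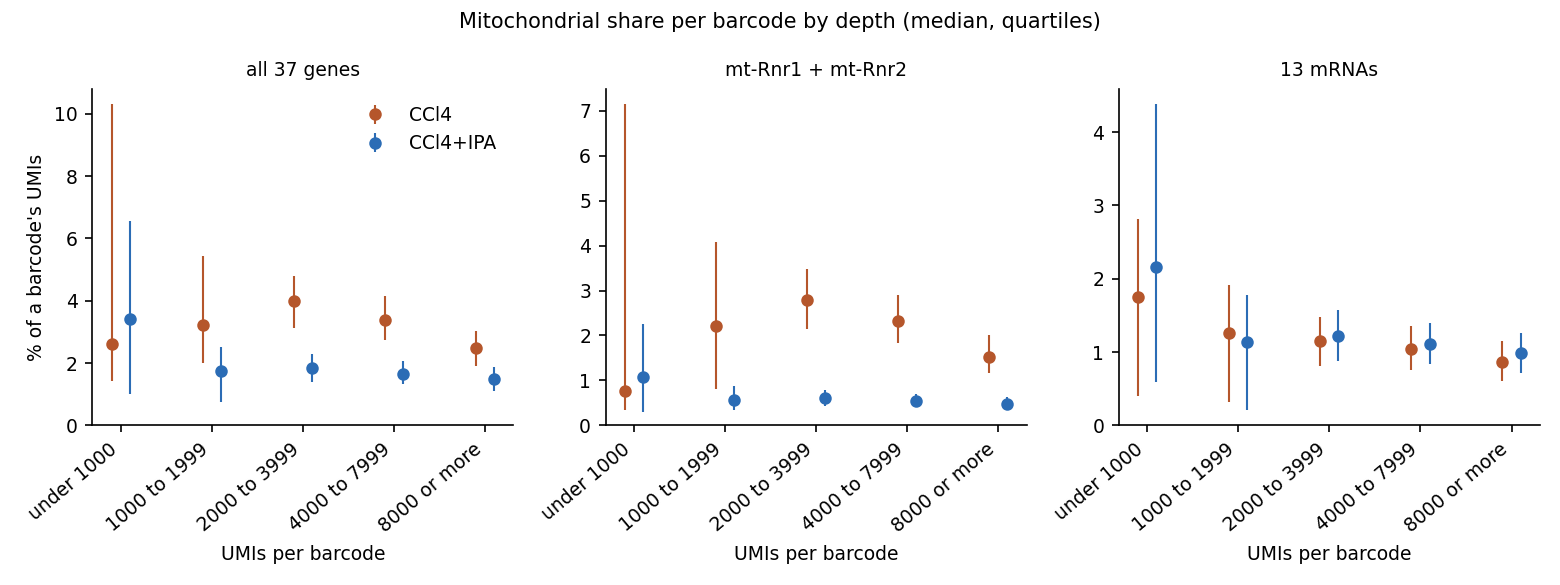
Mitochondrial share of a barcode's UMIs by depth for all 37 genes, the 2 rRNAs and the 13 mRNAs: points are medians over barcodes, lines run between the quartiles. From 1000 UMIs up the rRNA medians of CCl4+IPA (0.476 to 0.606%) lie below those of CCl4 (1.52 to 2.79%), while the mRNA medians differ less and are lower in CCl4+IPA at 1000 to under 2000 UMIs; under 1000 UMIs the medians in all 3 panels are higher in CCl4+IPA.

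The nuclear genes that work with these products showed no shift of the size seen in the rRNAs. Of the 41 genes listed as nuclear subunits of complex I, 38 were measured. Of these, 22 were higher and 16 lower in the IPA library, none past 1.5-fold, with a median log2 ratio of 0.02. The list includes Ndufa4 (362 and 390 CPM), which is also in the complex IV list and so is counted in both. Among those with at least 100 CPM in 1 library, Ndufb1 had the lowest ratio, at 352 and 291 CPM. Ndufs7 had the highest ratio, at 92.4 and 104 CPM. Of the 4 subunits of complex II, 3 were higher and 1 lower, and Sdha, its flavoprotein, was at 87.8 and 113 CPM. None of the 9 subunits of complex III, 12 of complex IV and 14 measured of complex V passed 1.5-fold either; Uqcrq of complex III was at 245 and 307 CPM, Cox7b of complex IV at 270 and 236 CPM, and Atp5g1, which encodes the ring subunit of ATP synthase, at 171 and 138 CPM. The 78 proteins of the mitochondrial ribosome, the partners of the 2 rRNAs, divided into 40 higher and 38 lower with a median of 0.02; Mrpl52 was at 232 and 215 CPM and Mrps33 at 96.1 and 103 CPM. The only one past 1.5-fold, Mrpl53, rested on 8 and 18 UMIs. Of 28 genes that copy, transcribe or process mitochondrial DNA and RNA, 21 were higher and 7 lower, none past 1.5-fold, with a median of 0.14. Each of these medians lay below the all-gene median of 0.22.

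Across 25 sums of a gate in a library, each with at least 50000 UMIs, the summed mitochondrial level was most like Malat1 (Pearson r = 0.85 on log2(CPM + 10)), followed by Son, Srsf11, Nsd1 and Dync1h1 (0.80 to 0.79). It was least like the hepatocyte genes Apoa2 (-0.90), Apoa1, Apoc4, Serpina1a and Apoc3. These points share 2 libraries and their depth, and the hepatocyte gate of the IPA library, with its low mitochondrial level, is among them. Mitochondrial rRNA correlated with the rRNA-like sum at 0.74 over all 25 sums, at 0.46 over the 13 of the CCl4 library and at 0.52 over the 12 of the IPA library; for mitochondrial mRNA these values were 0.18, -0.15 and 0.73. Over single B cell barcodes of at least 2000 UMIs, Spearman's rho between mitochondrial rRNA and the rRNA-like features was 0.46 in the CCl4 library (3356 barcodes) and 0.25 in the IPA library (2442). Between mitochondrial rRNA and mRNA it was 0.21 and 0.30. In T cells the same 4 values were 0.55, 0.32, 0.17 and 0.34 (2211 and 2656 barcodes). Cells of 1 library are not replicates, and these values are descriptions.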

How the data were processed

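The deposited matrices hold UMI counts per gene and barcode, not normalised; per the file headers the authors made them with Cell Ranger 7.1.0, and per the submitters' processing notes the build was mm9. Libraries were made with 10x Genomics 3′ V3 chemistry per the labels' protocols. Cell calling and the use of intronic reads or strand are not given in the sources used here. Of the gene identifiers, 94.1% are in GENCODE release M21 (all 37 mitochondrial ones), so no coordinates are printed.

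Members, lists and comparisons were chosen with earlier results of these data known. No barcode was filtered and doublets were kept; Scrublet calls (284 and 328) were left out as an alternative. A barcode took the class with the most of its 8 markers detected, at least 3, with no other list above 0.5 of that number; 1119 and 899 barcodes were mixed and 759 and 554 ungated (470 and 335 of these 1 marker short). Named genes were all 37 members, with counts or levels given for those with at least 20 UMIs. Up to 4 highest and 4 lowest ratios per list with at least 100 CPM were also taken, not all printed. Shares have Clopper-Pearson, CPM Poisson and ratios conditional binomial intervals; they were checked on simulated counts. A 0 was bounded with 3 UMIs per gate and library. Sequence sharing was read from 141730 GENCODE transcripts. Alternatives changed barcodes, gates, depth, denominators and gene sets. Software was Python 3.11.15, scanpy 1.11.5, scipy 1.17.1, matplotlib 3.10.9, pandas 2.3.3 and numpy 2.4.6.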

Additional observations from a re-analysis of the deposited data

Results flagged for a closer look

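The summed share of the 13 mRNAs had a log2 ratio of -0.072 in the plasmacytoid dendritic cell gate, while the other 9 gates had ratios above 0. The difference between gates was not tested, and with each barcode thinned to 1000 UMIs the gate's log2 ratio was 0.034. In barcodes under 1000 UMIs the median mitochondrial share was 0.81 percentage points higher in the IPA library, while in the 4 deeper bins it was lower. That difference was not tested either.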

How the results depend on the processing

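With 1 library per group nothing here has replicate error, and depth limits the small gates and the tRNAs. No paired analysis was possible because each group has 1 library. The log2 ratio of the summed mitochondrial share was -0.92. It was -0.90 without barcodes over 20% mitochondrial, -0.93 with at least 1000 UMIs, -1.04 thinned to 1000 UMIs, -1.02 with the rRNA-like features out of the denominator, and -0.97 without mixed and ungated barcodes (chosen after seeing the data). Counted on the 13 mRNAs only it was 0.13, the median difference was 0.067 percentage points, and 1 gate of 10 was lower. The median difference of all 37 genes was -1.75 percentage points, -2.05 without the rRNA-like features in the denominator and -1.91 without mixed and ungated barcodes. The number of gates with a lower mitochondrial share was 10 as reported and under each other alternative run for it. The number of mRNAs over 1.5-fold lower was 3, and 2 to 4 under the alternatives: 2 without barcodes over 20% mitochondrial and with nuclear copies added, 4 when thinned, without the rRNA-like features, or without rRNA and tRNA in the denominator. The mRNA share turned in monocytes when thinned (-0.0028) and without the rRNA-like features (-0.043), and in plasmacytoid dendritic cells when thinned (0.034). mt-Nd2 turned under the same 2 settings (-0.012 and -0.066). The causes of these turns were not tested. mt-Nd3 summed with its nuclear copy had a log2 ratio of -0.50 in place of -5.64.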
